A study of Mus musculus with 2 samples.

Results

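The genes that carry a cell through G1/S and copy its DNA, from origin licensing to nucleotide supply, were followed in a T cell subset made in the thymus around birth, Vγ6 γδ T cells. The 47 members were taken by gene symbol from the annotation of the array, and all 47 were found, 46 of them among the 30142 genes with a row of their own and Mcm7 on a row shared with 2 microRNAs. The members were placed in 6 role groups by what their proteins do. The cells had been sorted by flow cytometry from thymi of C57BL/6 mice, 0 days old. MHC class II KO mice lack the surface molecules that show peptides to CD4 T cells, and WT mice have them. Each genotype was measured on 1 whole-transcript array, so no difference given here has an error or a test, and all differences describe these 2 arrays. Which class II gene was disrupted, whether several animals were pooled, and of which sex the animals were is not stated in the labels.

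DNA can be copied only at origins that were prepared in G1, when the origin recognition complex and its helpers load the ring-shaped MCM helicase. Cyclin E with CDK2 then starts S phase, while E2F transcription factors switch on the genes for replication proteins and for the enzymes that make DNA building blocks. Developing thymocytes and fetal γδ T cells pass through this cycle as they expand.

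Several facts of the whole experiment bear on the values below. The genes of MHC class II checked the labels in part, since H2-Ab1 had a log2 signal of 6.67 in MHC class II KO cells and 7.68 in WT cells. The female-specific RNA Xist was lower in MHC class II KO cells (log2 difference -0.56), at 14.79 against 15.35 in WT cells. The Y-linked gene Kdm5d was higher by 0.75. Xist, Kdm5d and the Y-linked genes Uty and Eif2s3y were above background on both arrays, so each array held RNA of female and of male cells. The part of the animals' sex in the differences below was not tested. A list of 20 genes marks double positive and αβ thymocytes, of which 15 had a row of their own and 14 were above background on at least 1 array. The differences of all 14 lay above 0, and 10 reached 1.5-fold toward higher signal in MHC class II KO cells. Their summed linear signal was 45358 in MHC class II KO cells and 22076 in WT cells, with Cd8b1 making up the largest part. The largest difference was that of Dntt, at a log2 signal of 7.82 in MHC class II KO cells and 5.31 in WT cells. Dntt and Ptcra were above background in MHC class II KO cells only, and Rag2, which is not among the 14, was below background on both arrays. Such thymocytes include dividing cells, and their part in the differences of the replication genes was not tested. The Vγ6 markers had a row of their own for 13 of 18, all above background, with summed signals of 188887 in MHC class II KO cells and 189445 in WT cells. Most of these sums came from a few bright genes, and single markers differed widely, with 8 of the 13 above 0. Il17f and Il17a, which encode the cytokines IL-17F and IL-17A, differed by -2.88 and -1.57, and Ccr6, the gene of a chemokine receptor, by 1.46. Markers of the other cells listed were mostly below background, with 2 of 11 for B cells, 5 of 14 for dendritic cells and macrophages, 5 of 12 for thymic epithelium and 2 of 6 for erythroid cells above it. The 5 of dendritic cells and macrophages all lay above 0 and 2 were at least 1.5-fold higher, Irf8 by 1.11 and Cd68 by 0.91 on the log2 scale. The others of the 5 were Siglech and Cx3cr1, above background on both arrays, and Lyz2, above it in MHC class II KO cells only. The summed signal of the 5 was 1178 in MHC class II KO cells and 692 in WT cells. The rest of this list with a row, Csf1r, Adgre1 and Flt3 among them, was below background on both arrays. The part of such cells in the differences below was not tested. In bulk RNA, more cells in S phase and more transcript per cell cannot be told apart.

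Every one of the 47 members was above background on both arrays, so no member was lost to the filter on dim signals. Background was set at the 95th percentile of the rows of odorant receptors, genes foreign to T cells, at a log2 value of 5.86 in MHC class II KO cells and 5.94 in WT cells. The member nearest to background was Ung, at 7.02 in MHC class II KO cells and 7.05 in WT cells. Each member had a single row, and the row of Mcm7 also names 2 microRNAs that lie within that gene, Mir93 and Mir25, so its value cannot be given to Mcm7 alone.

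The members as a set were slightly higher in MHC class II KO cells, and the shift was uneven. Of the 47, 39 (83.0%) had a difference above 0, against 56.4% of the 14494 genes above background on at least 1 array. Their median difference was 0.19 on the log2 scale, with quartiles of 0.05 and 0.31, while the median of all genes above background was 0.04. Genes of like signal also leaned this way, by less. The 3679 genes whose mean log2 signal lay between 9.35 and 12.23, the quartiles of the members, had a median of 0.07, and 63.1% of them were above 0.

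Large differences were few. Ccne2, Rrm2 and E2f2 were at least 1.5-fold higher in MHC class II KO cells, which is 6.38% of the members against 3.74% of all genes, a share near the background. No member was at least 1.5-fold lower, against 2.66% of all genes. Ccne2 was the only member at least 2-fold higher, against 0.738% of all genes. The members next to the 1.5-fold threshold were E2f2 just inside it at 1.72-fold and Cdk2, Cdc45 and Tyms just outside it, at 1.47, 1.47 and 1.46-fold. At the other end the lowest member, Orc1, was 0.925-fold.

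**Figure D1:**
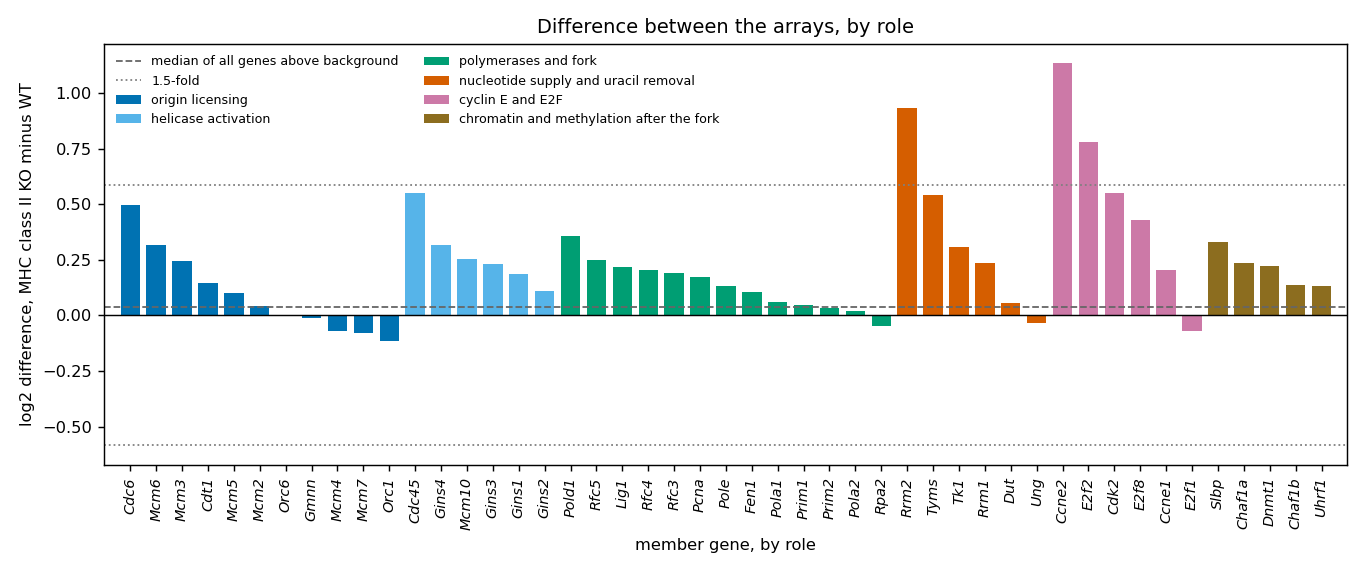
Bars give the log2 difference of each of the 47 members, MHC class II KO minus WT, with 1 array per genotype and hence no error bars. Colours mark the role groups, the dashed line is the median of all genes above background (0.04) and dotted lines mark 1.5-fold. Cyclin E, E2F and nucleotide genes hold the tallest bars, and Ccne2 reaches 1.13.

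With no replicate arrays, the only gauge of measurement error within these data is genes that have more than 1 row. For 170 such genes, the SD of the gap between the differences of a gene's 2 brightest rows was 0.276. Of the members, 13 (27.7%) had a difference above 0.276 and 0 had one below -0.276, against 18.3% and 12.3% of all genes above background, and 14 members lay within 0.1 of 0. A gap carries the probe error of 2 differences, so its SD is not the error of 1 difference. This gauge covers disagreement between probes and not variation between animals or sorts.

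The letters before the genes are shown here because most members share a sequence that E2F factors are known to bind. Promoter windows, from 250 bases before to 50 bases after the annotated start, came from RefSeq on GRCm38.p6 and matched 39 of the 47 members by symbol. Ccne2, Gmnn, Mcm4, Gins1, Gins2, Gins4, Prim2 and Pole were not among them. An E2F motif was counted where TTNNCGC, with C or G at both N, stood on either strand, and matches that overlap counted as 1 site. In the stretches below, the last base is the one before the start of the gene, read 5′ to 3′ on the gene's own strand, and capitals mark the E2F motif. Rrm2 and Rrm1 are a pair with unequal differences, Cdk2 lay just under the 1.5-fold threshold, Mcm6 carries the same site at 2 places, Pola1 carries several sites and differed by 0.06, and Orc1 had the lowest difference. Sites after the start, as Cdk2, Mcm6 and Pola1 have, are not in these stretches.
Rrm2, chr12:24708004-24708253, plus strand: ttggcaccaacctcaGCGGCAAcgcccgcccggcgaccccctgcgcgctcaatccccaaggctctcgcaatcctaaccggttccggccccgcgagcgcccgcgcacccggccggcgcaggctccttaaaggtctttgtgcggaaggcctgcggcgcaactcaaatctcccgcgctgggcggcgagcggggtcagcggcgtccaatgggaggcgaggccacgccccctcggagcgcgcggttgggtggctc
Rrm1, chr7:102441445-102441694, plus strand: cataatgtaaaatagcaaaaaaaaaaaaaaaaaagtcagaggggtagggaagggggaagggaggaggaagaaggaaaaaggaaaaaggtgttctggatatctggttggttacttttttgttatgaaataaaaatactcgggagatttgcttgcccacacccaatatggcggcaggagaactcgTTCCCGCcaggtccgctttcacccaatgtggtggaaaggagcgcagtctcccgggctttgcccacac
Cdk2, chr10:128705052-128705301, minus strand: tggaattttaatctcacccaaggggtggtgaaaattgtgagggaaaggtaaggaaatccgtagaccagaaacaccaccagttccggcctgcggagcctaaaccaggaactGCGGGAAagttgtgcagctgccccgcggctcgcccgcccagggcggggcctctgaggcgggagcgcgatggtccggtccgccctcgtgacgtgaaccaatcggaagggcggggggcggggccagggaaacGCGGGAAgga
Mcm6, chr1:128359706-128359955, minus strand: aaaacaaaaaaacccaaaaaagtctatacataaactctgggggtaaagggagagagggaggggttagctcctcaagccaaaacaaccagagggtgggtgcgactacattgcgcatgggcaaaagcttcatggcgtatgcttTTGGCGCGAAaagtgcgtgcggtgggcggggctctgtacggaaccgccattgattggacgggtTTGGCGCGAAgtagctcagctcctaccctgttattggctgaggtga
Pola1, chrX:93632156-93632405, minus strand: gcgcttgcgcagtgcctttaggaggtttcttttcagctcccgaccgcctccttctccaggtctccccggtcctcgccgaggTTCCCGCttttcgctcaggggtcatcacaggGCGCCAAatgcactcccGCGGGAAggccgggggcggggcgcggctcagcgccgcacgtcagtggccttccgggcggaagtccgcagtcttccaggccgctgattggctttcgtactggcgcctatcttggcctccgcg
Orc1, chr4:108579204-108579453, plus strand: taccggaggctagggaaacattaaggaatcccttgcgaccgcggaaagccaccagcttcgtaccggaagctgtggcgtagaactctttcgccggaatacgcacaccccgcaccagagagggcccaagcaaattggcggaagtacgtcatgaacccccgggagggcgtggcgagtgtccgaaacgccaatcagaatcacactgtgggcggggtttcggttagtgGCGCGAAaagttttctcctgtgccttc

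In Mcm6 both sites before the start are the 10-base stretch TTGGCGCGAA, in which motifs on the 2 strands overlap. They end 99 and 36 bases before the start. The Orc1 site ended 20 bases before the start and the nearer Cdk2 site 3 bases before it. The single Rrm2 site ended 228 bases before the start, far from it, and the Rrm1 site 60 bases before.

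An E2F motif was found for 25 of the 39 members with a window (64.1%), against 1604 of 8397 genes above background (19.1%) and 2936 of 27025 genes in the whole table (10.9%). For comparison, 40 genes of G2/M and mitosis were listed as the neighbouring stage of the cycle, and 37 of them were above background. Of all 40, whatever their signal, 33 had a window, and 4 of these 33 (12.1%) held an E2F motif. The CHR motif (TTTGAA or TTCGAA, either strand), a sequence known from promoters of late cell cycle genes, went the other way. It was found for 9 of 39 members (23.1%), 25 of 33 G2/M genes (75.8%) and 17.1% of genes above background. A CCAAT box, on either strand, was present for 24 of the 39 members (61.5%), 75.8% of the G2/M genes and 43.3% of genes above background. A match is a run of letters and not a shown binding site.

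Members with and without the E2F motif had like differences between the arrays. Those with it had a median difference of 0.22 (25 genes) and those without it 0.19 (14 genes). By role, the motif was held by 7 of 9 genes with a window in origin licensing (median difference of the group 0.04), 1 of 3 in helicase activation (0.24) and 8 of 11 among polymerases and fork genes (0.13). It was held by 2 of 6 in nucleotide supply (0.27), 3 of 5 of cyclin E and E2F (0.49) and 4 of 5 in chromatin (0.22). These medians cover all genes of a group, also those without a window, such as Ccne2, and so are not over the same genes as the motif counts.

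**Figure D2:**
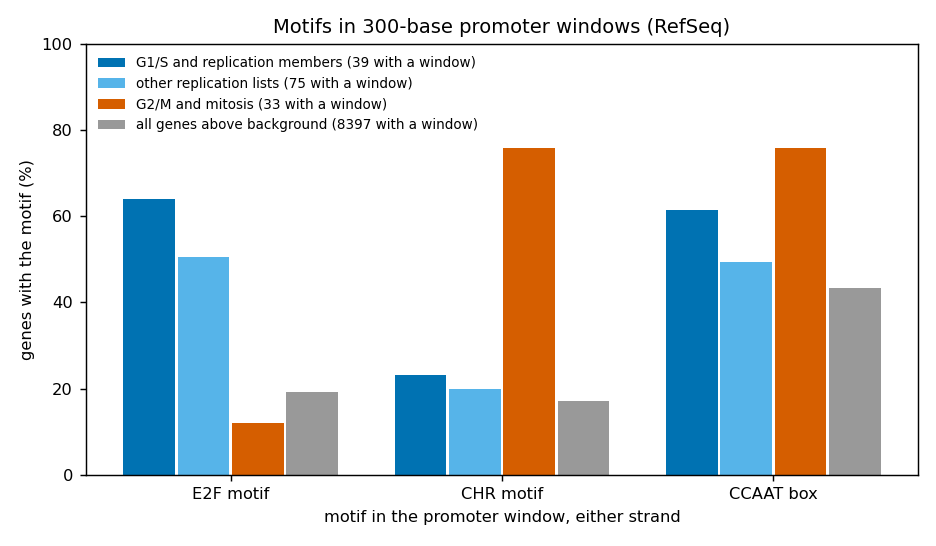
Bars give the percentage of genes with an E2F motif, a CHR motif or a CCAAT box in the 300-base promoter window, for members, other replication lists, G2/M genes and all genes above background. The E2F motif is most frequent in the members (64.1%) and the CHR motif in the G2/M genes (75.8%).

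The switch into S phase held the largest member differences. Ccne2, one of the 2 genes for cyclin E, had a log2 signal of 9.85 in MHC class II KO cells and 8.71 in WT cells, a difference of 1.13 that lay above those of 99.5% of all genes. Ccne1, the gene for the other cyclin E, had signals of 10.50 in MHC class II KO cells and 10.29 in WT cells, a difference of 0.21. Only Ccne2 of this pair was therefore past 1.5-fold. Cdk2, the kinase both cyclins switch on, was at 10.43 in MHC class II KO cells and 9.87 in WT cells, 0.55 higher.

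The E2F genes differed among themselves. E2f2, which encodes an activating E2F, had signals of 8.67 in MHC class II KO cells and 7.89 in WT cells, a difference of 0.78. E2f1, the gene of another activating E2F, was at 8.30 in MHC class II KO cells and 8.37 in WT cells, a difference of -0.07. E2f8, which encodes an atypical E2F that represses transcription, was at 10.80 in MHC class II KO cells and 10.37 in WT cells, 0.43 higher. The 6 genes of cyclin E and E2F had a median difference of 0.49, against 0.19 for all members.

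Nucleotide supply also held high values. Rrm2 encodes the small subunit of ribonucleotide reductase, which makes deoxynucleotides, and had signals of 11.01 in MHC class II KO cells and 10.08 in WT cells. Its difference of 0.93 was 1.91-fold. Rrm1, the gene for the large subunit, was at 11.58 in MHC class II KO cells and 11.35 in WT cells, a difference of 0.23. The 2 subunits of one enzyme thus differed in their values by 0.70 on the log2 scale, as Ccne2 and Ccne1 did by 0.93 and E2f2 and E2f1 by 0.85. Each of these pairs holds a member past 1.5-fold. Gaps were smaller for the other pairs compared, Pold1 and Pole (0.23), Cdt1 and Gmnn (0.16), Chaf1a and Chaf1b (0.10) and Prim1 and Prim2 (0.01).

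The members that make thymidine nucleotides were higher in MHC class II KO cells, within 1.5-fold. Tyms, the gene for thymidylate synthase, was at 12.74 in MHC class II KO cells and 12.20 in WT cells (difference 0.54). Tk1, which encodes the thymidine kinase of the salvage route, was at 8.82 in MHC class II KO cells and 8.52 in WT cells (difference 0.31). Tk2, which is no member and encodes the thymidine kinase of mitochondria, differed by -0.22. The genes that keep uracil out of DNA were nearly level. Dut, for the enzyme that destroys dUTP, differed by 0.06 and Ung, for the enzyme that cuts uracil out, by -0.03.

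**Figure D3:**
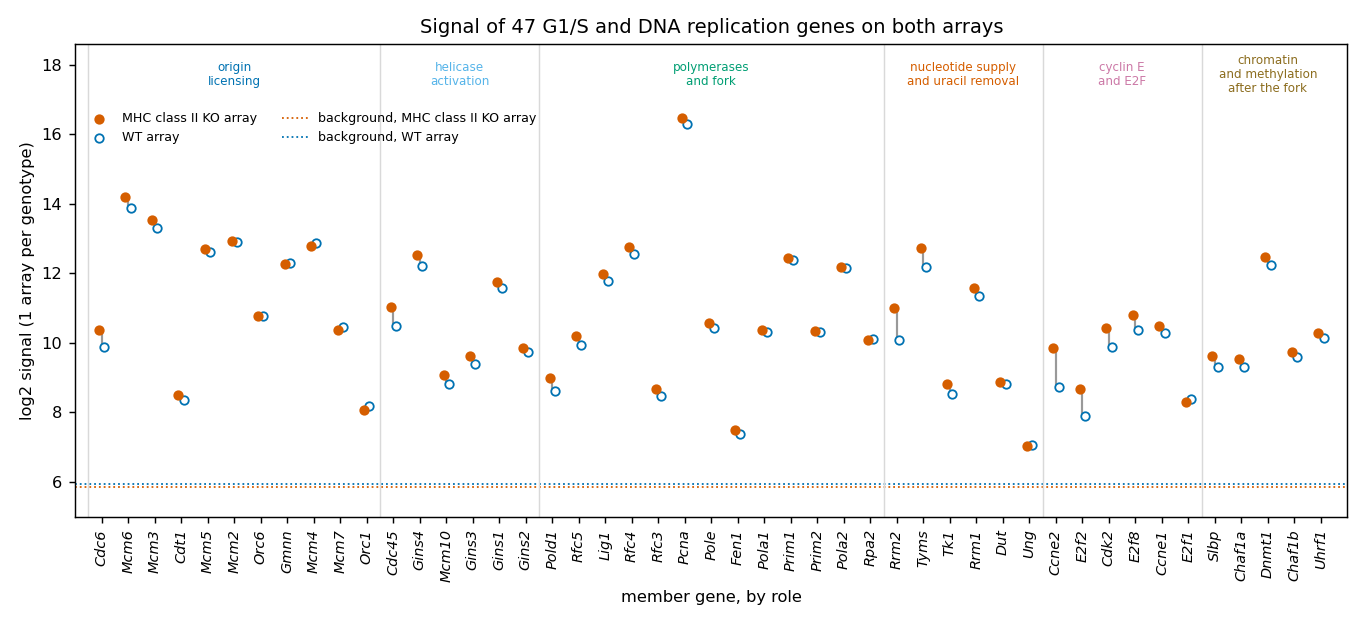
Points give the log2 signal of each member in MHC class II KO cells (filled) and WT cells (open), joined by a line, with 1 array per genotype. Dotted lines are the 2 backgrounds (5.86 for the MHC class II KO array and 5.94 for the WT array), and every member lies above both. Within a role group the genes run from the highest to the lowest difference.

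Origin licensing was nearly level, with a median difference of 0.04 over 11 genes. Of these, 6 (54.5%) were above 0 and 5 below, near the 56.4% of all genes above 0. Cdc6, which brings the MCM helicase to origins, stood out within this group at 10.38 in MHC class II KO cells and 9.88 in WT cells, 0.50 higher. Cdt1, its partner in loading, was at 8.51 in MHC class II KO cells and 8.36 in WT cells, a difference of 0.15. Gmnn, the gene for geminin, which blocks Cdt1 after origins have fired, differed by -0.01. Of the origin recognition complex, Orc1 was at 8.06 in MHC class II KO cells and 8.18 in WT cells, the lowest member difference at -0.11, and Orc6 was at 10.77 on both.

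The 6 subunits of the MCM helicase ran from -0.08 to 0.32. Mcm6 was at 14.19 in MHC class II KO cells and 13.88 in WT cells (0.32), and Mcm3 at 13.55 in MHC class II KO cells and 13.30 in WT cells (0.25). Mcm5 and Mcm2 differed by 0.10 and 0.04. Mcm4 differed by -0.07 and the row of Mcm7 with its microRNAs by -0.08. These proteins work as one ring. Of the 6 genes, 4 (66.7%) lay above 0, a share near the 56.4% of all genes above background.

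The factors that turn the loaded ring into a moving helicase were all higher, none by 1.5-fold. Their median difference was 0.24 over 6 genes. Cdc45, which joins the ring when origins fire, was at 11.03 in MHC class II KO cells and 10.47 in WT cells, 0.55 higher. The 4 genes of the GINS complex, the other partner of the ring, differed by 0.18 for Gins1, 0.11 for Gins2, 0.23 for Gins3 and 0.32 for Gins4. Mcm10, which helps to activate the helicase, was at 9.07 in MHC class II KO cells and 8.81 in WT cells, a difference of 0.25.

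The copying machinery shifted little, with a median of 0.13. Of its 13 genes, 12 (92.3%) were above 0, against 56.4% of all genes above background. The 4 subunits of polymerase α and primase, which lay the first primers, differed by 0.06 for Pola1, 0.05 for Prim1, 0.03 for Prim2 and 0.02 for Pola2, which is level with the median of all genes at 0.04. The signs of Prim2 and Pola2 turn when the arrays are centred on that median, and that of Pola2 also after quantile normalization. The clamp loader genes Rfc5, Rfc4 and Rfc3 differed by 0.25, 0.20 and 0.19. The other 2 clamp loader genes, which are no members, differed by 0.26 for Rfc1 and -0.02 for Rfc2. Differences of this size are smaller than the SD of the gap between the differences of 2 rows of a gene (0.276), which is not the error of a single difference.

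Of the polymerases that extend the primers, Pold1, the catalytic subunit of polymerase δ, was at 8.98 in MHC class II KO cells and 8.62 in WT cells, 0.36 higher, and Pole, that of polymerase ε, differed by 0.13. Pcna, the gene for the sliding clamp that holds them on DNA, was at 16.46 in MHC class II KO cells and 16.29 in WT cells, a difference of 0.17. It was the only member above 65535 on the linear scale, the limit of a 16-bit scanner. Like those of all members, its value is a processed intensity and not a plain reading. Lig1 and Fen1, which join and trim the pieces of the lagging strand, differed by 0.22 and 0.11. Rpa2, a subunit of the protein that coats single-stranded DNA, differed by -0.05.

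The genes that rebuild chromatin behind the fork were all higher by a small amount, with a median of 0.22 over 5 genes. Dnmt1, which copies DNA methylation, was at 12.47 in MHC class II KO cells and 12.25 in WT cells (0.22), and Uhrf1, which guides it, differed by 0.13. Chaf1a and Chaf1b, subunits of the histone chaperone CAF-1, differed by 0.24 and 0.14. Slbp, whose protein binds the messages of replication histones, had the largest difference of this group, at 9.62 in MHC class II KO cells and 9.29 in WT cells (0.33).

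**Figure D4:**
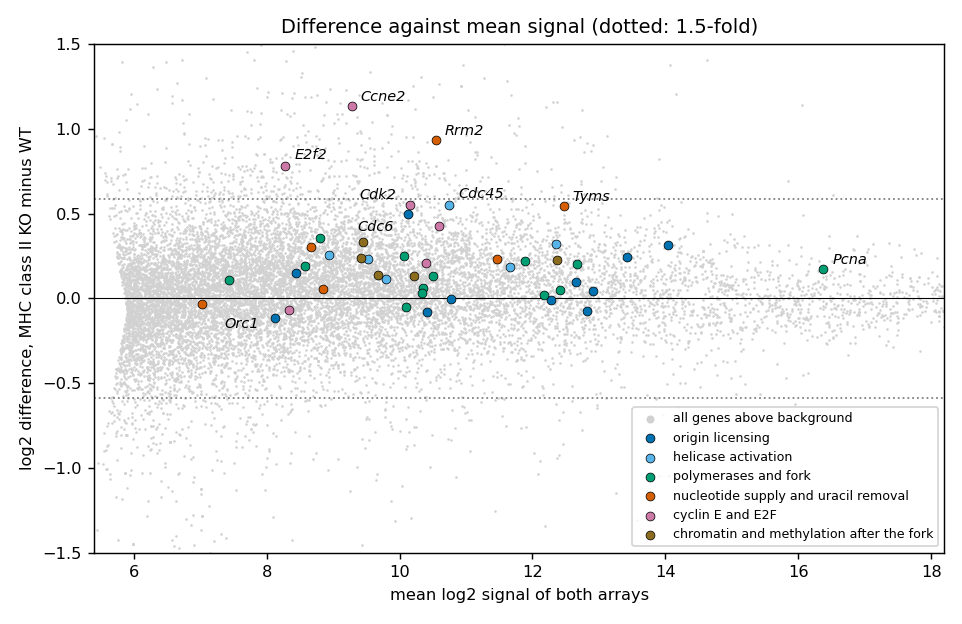
Each point is a gene, with the mean log2 signal of both arrays on the horizontal axis and the log2 difference, MHC class II KO minus WT, on the vertical axis. Grey points are genes above background, some of which lie outside the axes. Coloured points are the members. Of the members, Ccne2, Rrm2 and E2f2 lie above the dotted 1.5-fold line.

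Further genes of replication that are no members were compared from lists written down with the members. Of 98 such genes, 90 were above background on at least 1 array, with a median of 0.08. Of these 90, 57 (63.3%) had a difference above 0, against 56.4% of all genes above background. At the 1.5-fold threshold 1 gene was higher and 1 lower, against 3.74% and 2.66% of all genes. The higher one was E2f7, which encodes the atypical E2F most like that of E2f8, at 8.72 in MHC class II KO cells and 8.01 in WT cells (0.72). The lower one was Cdkn1a, the gene for the CDK inhibitor p21, at 7.59 in MHC class II KO cells and 8.22 in WT cells (-0.63).

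The lists of other genes had medians of -0.01 for origin and firing factors (12 genes), 0.05 for polymerase, clamp and fork subunits (21), 0.16 for nucleotide enzymes (10), 0.22 for chromatin assembly (9), 0.19 for checkpoint and repair (14) and 0.26 for G1/S regulators (24). As among the members, origin factors had the lowest median and G1/S regulators the highest, though neighbouring medians were close. The lists were chosen with earlier results of these data known, so this likeness is no independent check. Cdc7 and Dbf4, the kinase and its partner that fire licensed origins, differed by 0.05 and -0.18. Among the G1/S regulators, the cyclin genes Ccna2 and Ccnd3 were each higher by 0.54, while Ccnd2 differed by -0.23. Ccnd1 had only a row shared with a microRNA and was not analysed here. Myc, a driver of growth, differed by 0.41 and Cdkn1b, the gene for the CDK inhibitor p27, by -0.04. The list mixes genes that drive G1/S with genes that restrain it, so its median has no single reading. Of the restraining genes, Rb1, Rbl1 and Rbl2 differed by 0.44, 0.40 and 0.26. The CDK inhibitor genes Cdkn2c and Cdkn2d differed by 0.25 and 0.20 and Cdkn1a by -0.63, while Cdkn1c and Cdkn2a were below background on both arrays.

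Beside the members, the later stage of the cycle showed larger values. Of 37 G2/M genes above background, 22 were at least 1.5-fold higher (59.5%), and their median difference was 0.65, against 3 of 47 and 0.19 for the members. With 1 array per genotype this gap between the stages could not be tested. The double positive thymocyte markers, which had a median of 0.74 on the same arrays, were higher in MHC class II KO cells as well.

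**Figure D5:**
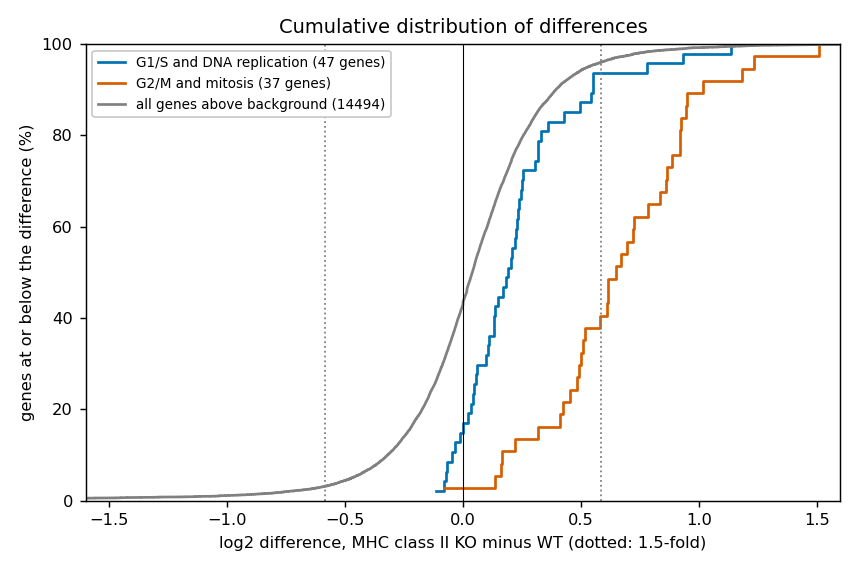
Lines give the percentage of genes at or below each log2 difference, MHC class II KO minus WT, for the 47 members, 37 G2/M genes and 14494 genes above background. Differences below -1.6 or above 1.6 are off the axis. The members' line lies between the other two, with medians of 0.19 for members, 0.65 for G2/M genes and 0.04 for all genes.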

How the data were processed

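RNA of sorted Vγ6 γδ T cells was measured on 1 array for each genotype. The authors deposited linear intensity values, 1 for each transcript cluster. Per the submitters' processing notes, RMA and Affymetrix Expression Console 1.4.1 were used, with RMA settings and genome build not given in the sources used here. The values pass 65535, the limit of a 16-bit scanner, for 742 rows in MHC class II KO cells and 767 in WT cells, so every fold could be wider or narrower than on the scanner.

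Intensities were turned to log2, and the value in WT cells was subtracted from that in MHC class II KO cells. Symbols came from the platform annotation. Of its rows, 22818 were matched to the RefSeq table of GRCm38.p6, which changed the symbol of 827. Of 65956 rows, 30604 had 1 symbol. The brightest row stood for a gene. The rule for members also took rows naming several symbols, which concerned Mcm7 alone. A gene above background on 1 array was counted at the difference to the background of the other. Genes were counted at 1.5-fold and 2-fold. The number of arrays limits the precision, and no test was possible.

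All members were described. Values were printed for members at least 1.5-fold apart, the ends of each role group, those next to the threshold and their complexes. Other pathway genes were named at 1.5-fold, with 9 named whatever their values and some more for comparison. The members, lists and rules were chosen with earlier results of these data known. The fold counts and the median of a set were run on simulated data. The changes simulated for the fold counts were larger than that of any member, so the run does not bear on small differences. The promoter steps were not simulated. Python 3.11.15, pandas 2.3.3 and statsmodels 0.14.6 were used.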

Additional observations from a re-analysis of the deposited data

How the results depend on the processing

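No paired analysis was possible because each genotype had 1 array. The alternatives were centring on the median of all genes, quantile normalization, a loess correction (fraction 0.3), raising values under background to it, the mean of a gene's rows, leaving out rows with several symbols, no background filter, background on both arrays, and background at the 99th percentile. Under each of these, the number of members past 1.5-fold was 3 upward and 0 downward, and 1 was past 2-fold upward. Only the first 3, which rescale the arrays, could change the value of a member. All 47 members had 1 row and lay above background on both arrays, so the alternatives on rows, filters and background left their values as they were. Leaving out rows with several symbols only removed Mcm7. With a 2-fold threshold in place of 1.5-fold, 1 member was higher. Between 37 and 39 members were above 0, and the members' median lay between 0.15 and 0.20. With no background filter, 30142 genes enter and the figures they give moved, with 43.5% of all genes above 0, a median of -0.03 and 2.22% at least 1.5-fold higher. Under the other alternatives 50% to 59.5% of all genes were above 0 and 3.10% to 4.07% were at least 1.5-fold higher. The values of 2 members near 0 changed sign, Pola2 to -0.019 after centring and -0.0044 after quantile normalization, and Prim2 to -0.0050 after centring. Each of the other members moved by less than 0.1. Under all 3 scalings the licensing group had the lowest median and the cyclin E and E2F group the highest.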

Other observations

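Genes above background that belong to none of the replication or G2/M lists were grouped by their promoter windows, a grouping chosen after the data were seen. Of 1540 such genes with an E2F motif, 3.12% were higher by 1.5-fold or more in MHC class II KO cells than in WT cells, with a median difference of 0.10. Of 684 with both a CHR motif and a CCAAT box, the share was 7.31% and the median 0.08. Of 5573 with neither an E2F nor a CHR motif, it was 3.45%, with a median of 0.07. With 1 array per genotype these shares could not be tested, and genes on the same arrays are not independent replicates.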
